A study of Mus musculus with 6 samples.

Results

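Collagen genes of the mouse were measured in cultured primary satellite cells, which are the muscle's own stem cells. They were taken as every row of the deposited count table whose symbol is Col, a number, the letter a and a number, which gave 44 of 27179 rows. Of these, 11 encode fibrillar chains, 6 encode the type IV chains of basement membranes and 27 encode chains of other types. The cells came from hindlimb muscle of wild-type C57BL/6 mice and are labelled as ageing, with no age given. Of the 6 libraries, 3 are from cells kept for 72 h with recombinant human MG53 (rhMG53), a striated muscle protein of the TRIM family that takes part in membrane repair, and 3 from vehicle controls, which got bovine serum albumin (BSA) instead. Both groups were grown in the same serum-containing medium with the growth factor bFGF, and the labels give day 3 for all 6. The replicates are described as biological, yet the labels link no library to a given mouse or dish. The p-values therefore cover only how these libraries vary, which may be technical in part.

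Collagens are the main structural proteins of the extracellular matrix. Each is a trimer of alpha chains wound into a triple helix, and a type can be built from the products of several genes. Fibrillar collagens (types I, II, III, V and XI and the minor types XXIV and XXVII) include those that form the banded fibrils of the connective tissue between muscle fibres. Type IV chains form the sheet-like network of the basement membrane that surrounds every muscle fibre and under which satellite cells lie. Other types sit on fibril surfaces, form microfilaments or span the cell membrane. Type VI, made in muscle largely by interstitial fibroblasts, is known from muscular dystrophies caused by mutations in its genes.

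Total gene counts were 17374151 to 19827476 in rhMG53 libraries and 17898768 to 22738745 in BSA libraries. The cultures did not hold undifferentiated satellite cells alone. Levels are given as CPM, the counts of a gene scaled to a common library size, here plain library totals for the markers. A list of 10 myogenic markers, led by Myh3 (embryonic myosin) and Acta1 (skeletal actin), summed to 42898 to 50197 CPM with rhMG53 and 47765 to 49294 CPM with BSA. On this list Myh8, Myog and Ckm averaged 2371, 910 and 476 CPM over the 6 libraries. The satellite cell factor Pax7 averaged 9.23 CPM and Myf5 15.3 CPM. A list of 15 fibroblast and fibro-adipogenic markers summed to 639 to 744 CPM with rhMG53 and 656 to 758 CPM with BSA, carried mostly by Gsn and Fbn1, which other cells also express. Pdgfra, the receptor that marks fibro-adipogenic cells, averaged 21.9 CPM, Lum, Pi16 and Dpp4 averaged 0.194 CPM or less, and Tcf21 was at 0 in all 6 libraries. Macrophage and leukocyte markers summed to 6.56 to 10.6 CPM with rhMG53 and 6.09 to 7.56 CPM with BSA, with C1qb at 0. Endothelial markers summed to 7.41 to 9.46 CPM with rhMG53 and 9.37 to 10.1 CPM with BSA. Schwann cell markers summed to 3.17 to 3.40 CPM with rhMG53 and 2.42 to 2.85 CPM with BSA. The tenocyte list summed to 119 to 156 CPM with rhMG53 and 107 to 141 CPM with BSA, mostly from the transcription factor gene Scx, with Kera at 0. Of its other members Cilp2 averaged 24.4 CPM and Mkx 2.50 CPM, while Tnmd, Fmod and Thbs4 averaged 0.427 CPM or less. Pericyte and smooth muscle markers summed to 1372 to 1479.9 CPM with rhMG53 and 1481 to 1624 CPM with BSA, mostly from Acta2 (mean 1254 CPM), with Kcnj8 at 0. On that list Abcc9, Pdgfrb and Notch3 averaged 127, 83.6 and 32.5 CPM. Rgs5, Myh11, Myocd and Higd1b averaged 0.441 CPM or less, so the sum mainly gives the level of Acta2. The part of these marker levels in the collagen values was not tested. In such bulk libraries fewer cells of a type and less RNA per cell cannot be told apart.

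None of the collagen genes passed the test between rhMG53 and BSA. In edgeR, 0 of the 34 members with enough counts to be tested had an adjusted p under 0.05, against 3 of all 13769 tested genes (0.0218%), all higher with rhMG53. The lowest adjusted p of a collagen gene was 0.940. At an unadjusted p under 0.05 there were 3 members, all lower with rhMG53, against 5.2% of all tested genes in either direction (2.98% higher and 2.22% lower). DESeq2 and limma voom also called 0 members, with 2 and 3 at an unadjusted p under 0.05. Of the 34 members 17 had a positive and 17 a negative log2 fold change (rhMG53 over BSA), with a median of -0.011 beside 0.0014 over all tested genes. The number of members with a positive value was 11 without rhMG53 replicate 1, 24 of 35 without rhMG53 replicate 2 and 22 without BSA replicate 1. The median was -0.043, 0.080 and 0.035 in these fits, and 0.0030 with library size alone as the scaling. The number at an unadjusted p under 0.05 was 1 without rhMG53 replicate 3. Without BSA replicate 2 no gene of the whole table passed.

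**Figure D1:**
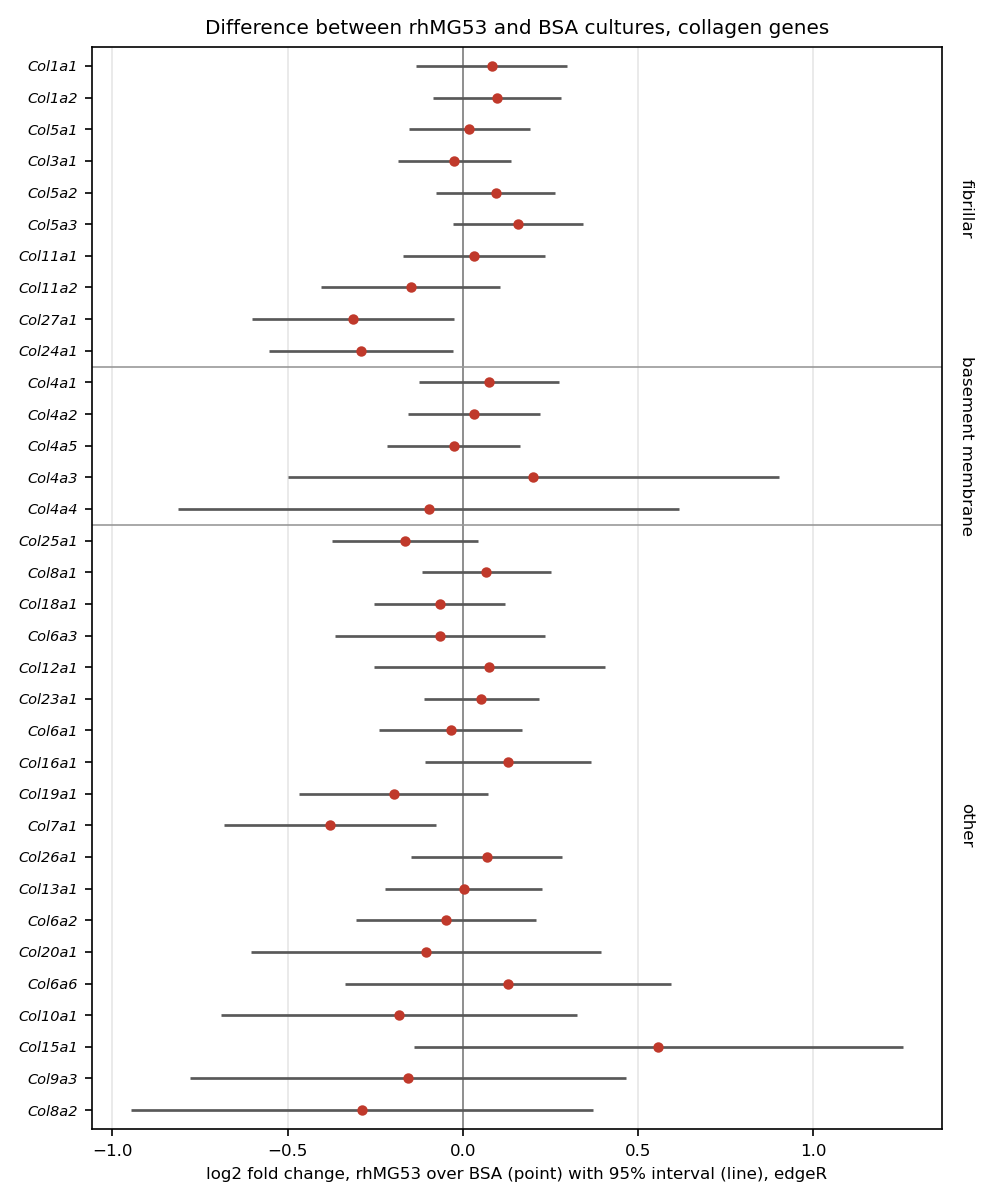
Log2 fold change (rhMG53 over BSA, points) with its 95% interval (lines) for the 34 tested collagen genes, in 3 classes and ordered by level within each. The intervals of 3 genes, Col27a1, Col24a1 and Col7a1, lie below 0 before adjustment, and those of the 11 genes of at least 100 CPM all include 0.

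The share of gene counts that fell on collagen genes ran from 0.392% to 0.470% over the libraries. The 44 genes held 0.470%, 0.417% and 0.460% of library counts in rhMG53 replicates 1 to 3, and 0.465%, 0.392% and 0.441% in BSA replicates 1 to 3. The groups overlapped, with means of 0.449 ± 0.0284% with rhMG53 and 0.433 ± 0.0375% with BSA (SD, n = 3 each). Counting error was far smaller than these spreads, since the exact 95% binomial interval of the lowest library, BSA replicate 2, ran from 0.389% to 0.395%. Fibrillar chains made up 60.7 ± 0.770% of collagen counts with rhMG53 and 59.9 ± 1.39% with BSA. Type IV chains made up 22.7 ± 0.746% with rhMG53 and 22.5 ± 0.873% with BSA. The other types took 16.6% of collagen counts in all 3 rhMG53 libraries and 17.4%, 18.3% and 17.1% in the BSA libraries. These shares within collagen did not overlap between the groups, a difference given as a description without a test. As a share of all library counts the other types overlapped, at 0.0783%, 0.0693% and 0.0763% with rhMG53 and 0.0809%, 0.0718% and 0.0753% with BSA, while fibrillar chains held 0.273 ± 0.0147% with rhMG53 and 0.259 ± 0.0256% with BSA.

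**Figure D2:**
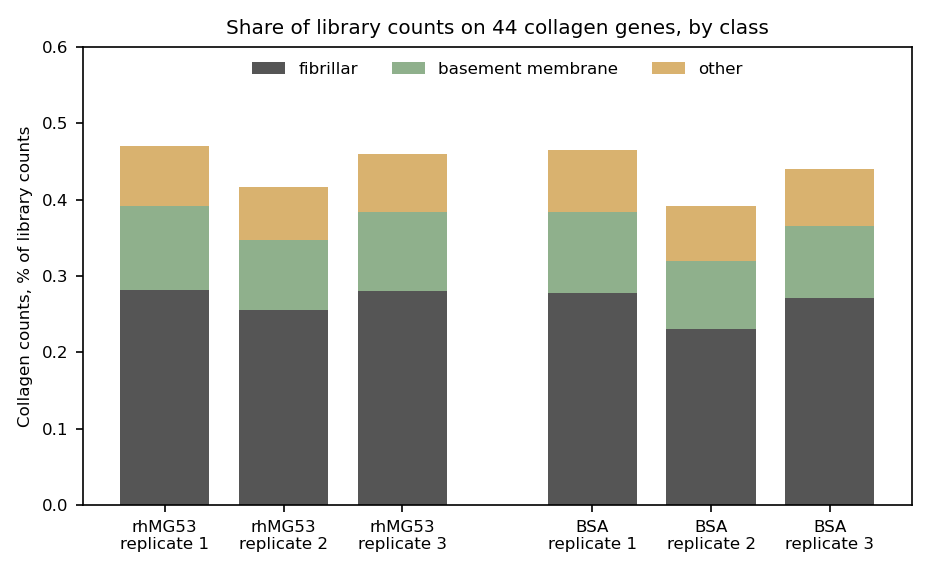
Stacked bars give the counts on 44 collagen genes as a percentage of all gene counts of each library, split into fibrillar, basement membrane (type IV) and other chains. The rhMG53 libraries stand between 0.417% and 0.470% and the BSA libraries between 0.392% and 0.465%, with replicate 2 the lowest bar of either group.

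Levels differed widely between members. The 11 genes of at least 100 CPM were 6 fibrillar genes, 2 type IV genes and 3 others, 15 genes lay between 5 and 100 CPM, and 18 lay below 5 CPM. Per kb of exon, Col1a1 led with 124 ± 8.84 CPM per kb with rhMG53 and 117 ± 16.04 with BSA. Col1a2 followed with 104 ± 8.36 CPM per kb with rhMG53 and 97.0 ± 8.81 with BSA, Col4a1 with 88.7 ± 9.14 CPM per kb with rhMG53 and 84.2 ± 8.33 with BSA and Col3a1 with 77.4 ± 3.92 CPM per kb with rhMG53 and 78.7 ± 6.51 with BSA, each ± being the SD of 3 libraries. Next came Col4a2 with 61.1 ± 6.47 CPM per kb with rhMG53 and 59.7 ± 4.82 with BSA, Col5a1 with 54.0 ± 4.81 CPM per kb with rhMG53 and 53.3 ± 3.54 with BSA, and Col5a2 with 47.2 ± 3.50 CPM per kb with rhMG53 and 44.2 ± 3.52 with BSA. Of the neighbours in this order, Col1a2 and Col4a1, Col4a1 and Col3a1, and Col4a2 and Col5a1 stood closer than the sum of their SDs in both groups. Col1a1 and Col1a2 did so with BSA and not with rhMG53, and Col5a1 and Col5a2 with rhMG53 and not with BSA. Col3a1 and Col4a2 were farther apart than that sum in both groups. The sum of SDs cannot decide the order of a pair, because both genes are measured in the same libraries and may rise and fall together. Within libraries the per kb ratio ran from 1.127 to 1.299 for Col1a1 to Col1a2 and from 1.12 to 1.24 for Col5a1 to Col5a2. Col1a1 and Col5a1 were therefore the higher of their pair in all 6 libraries. The other neighbours were not compared as ratios within libraries. By the mean over the 6 libraries, chains of types I, III, IV and V held the first 8 places.

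**Figure D3:**
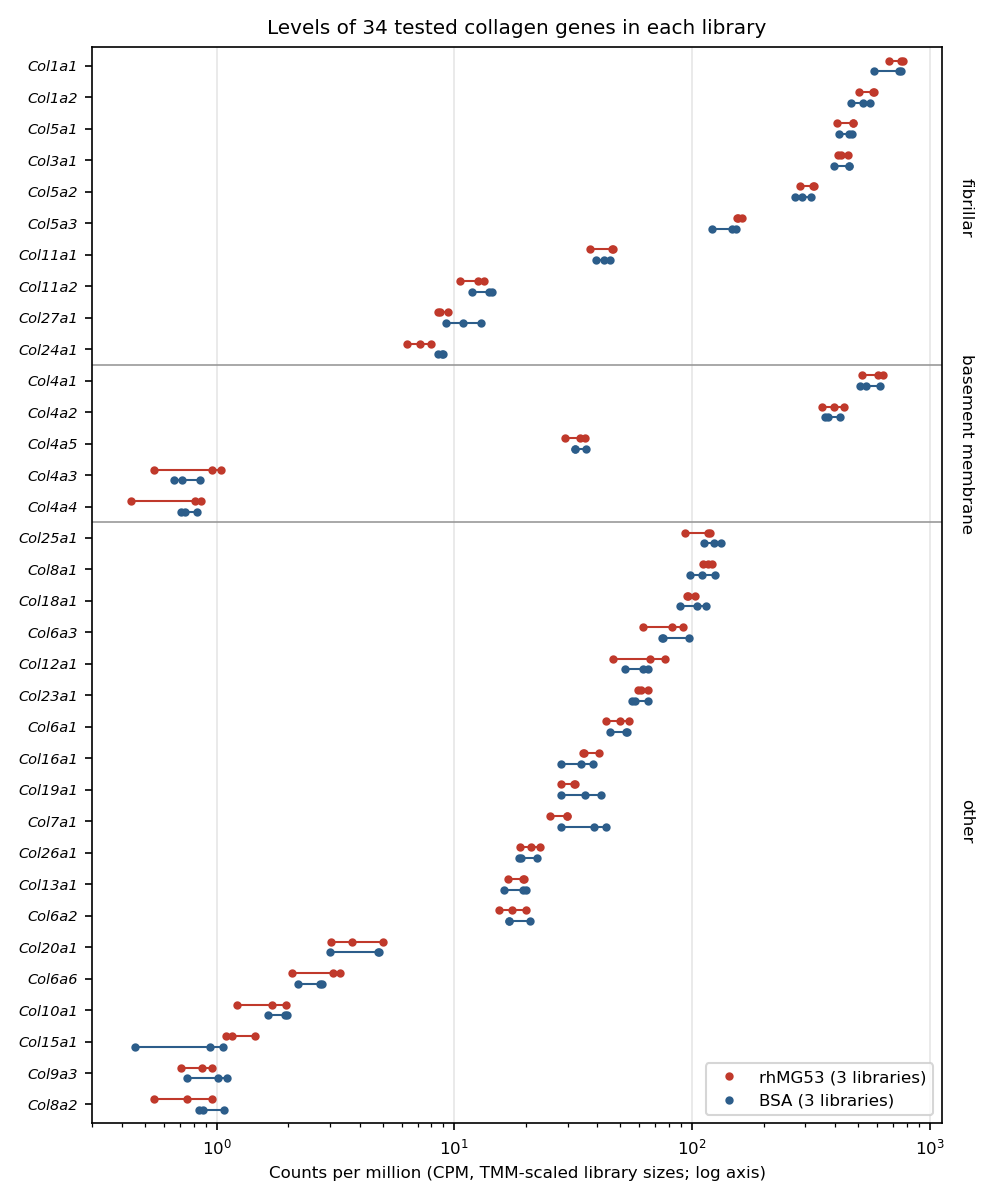
Each point is a library's level in CPM on a log axis, and each line spans the 3 libraries of a group, for the 34 tested collagen genes in 3 classes. Ranges of rhMG53 and BSA libraries overlap for 31 genes and are apart for Col5a3, Col24a1 and Col15a1.

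The type I chains, the most abundant fibrillar chains, did not pass. Col1a1 (gene ID 12842, mm10 chromosome 11, 94936224 to 94953042) had 773, 677 and 760.2 CPM with rhMG53 and 745, 586 and 756 CPM with BSA, in the order of replicates 1 to 3. Col1a2, the other chain of type I (chromosome 6, 4505618 to 4541543), had 579, 503 and 583 CPM with rhMG53 and 562, 469 and 525 CPM with BSA. For both genes replicate 2 was the lowest library of either group, and the groups overlapped. The log2 fold change of Col1a1 was 0.083 (SE 0.098, 95% interval -0.13 to 0.30, adjusted p = 0.986). That of Col1a2 was 0.097 (SE 0.083, 95% interval -0.085 to 0.28, adjusted p = 0.981). The value for Col1a1 was -0.026 without BSA replicate 2.

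The type III and type V chains, which join type I in fibrils, did not pass either. Col3a1, whose product forms a trimer of a single kind of chain, had 424, 412 and 455 CPM with rhMG53 and 458, 396 and 459.6 CPM with BSA, with a log2 fold change of -0.024 (SE 0.073, 95% interval -0.19 to 0.14, adjusted p = 0.995). Col5a1, a chain of the type V collagen that starts and limits fibril growth, had 478, 407 and 476 CPM with rhMG53 and 472, 415 and 456 CPM with BSA, with a log2 fold change of 0.019 (SE 0.079, 95% interval -0.15 to 0.19, adjusted p = 0.995). The groups overlapped for both genes, and both signs turned when single libraries were left out. Col5a2, a partner of Col5a1 in the trimer, had 327, 286 and 324 CPM with rhMG53 and 317, 271 and 290.1 CPM with BSA, with a log2 fold change of 0.094 (SE 0.077, 95% interval -0.075 to 0.26, adjusted p = 0.978). Its groups overlapped too, with replicate 2 the lowest library of either group.

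Col5a3, the remaining type V chain, has a narrower tissue range (chromosome 9, 20770050 to 20815117). It had 162, 154 and 156 CPM with rhMG53 and 154, 121 and 148 CPM with BSA. All 3 rhMG53 libraries were above the BSA libraries, rhMG53 replicate 2 and BSA replicate 1 being nearly level. Its log2 fold change was 0.16 (SE 0.084, 95% interval -0.027 to 0.34, adjusted p = 0.965), and over the 15 alternative settings it lay between 0.061 and 0.23 with an adjusted p of 0.789 or more. Groups were apart for 3 of the 34 tested members, against 10.8% of all tested genes, with 2 members higher (5.94% of all) and 1 lower (4.83%).

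The minor fibrillar genes had negative values. Col24a1 (chromosome 3, 145292472 to 145552013), whose product is known from developing bone and cornea, had 7.98, 6.32 and 7.19 CPM with rhMG53 and 8.58, 8.93 and 8.85 CPM with BSA. Col27a1 (chromosome 4, 63214009 to 63334991), known from cartilage, had 8.53, 8.66 and 9.45 CPM with rhMG53 and 10.9, 9.21 and 12.9 CPM with BSA. The rhMG53 libraries were all below the BSA libraries for Col24a1, while for Col27a1 rhMG53 replicate 3 lay above BSA replicate 2. The log2 fold change of Col24a1 was -0.29 (SE 0.119, 95% interval -0.55 to -0.029, adjusted p = 0.946) and that of Col27a1 -0.31 (SE 0.131, 95% interval -0.60 to -0.024, adjusted p = 0.947). Without adjustment Col24a1 was under 0.05 with 1 of the 6 libraries left out in turn and Col27a1 with 2 of the 6. Of the type XI chains, Col11a1 averaged 43.3 ± 5.25 CPM with rhMG53 and 42.3 ± 2.85 CPM with BSA and Col11a2 12.1 ± 1.43 CPM with rhMG53 and 13.5 ± 1.40 CPM with BSA, with log2 fold changes of 0.032 and -0.15. Over the 10 tested fibrillar genes the median log2 fold change was 0.026, with 6 positive and 4 negative values, and Col2a1, the cartilage collagen gene, was too low to test at 26 counts over 6 libraries. That median was 0.11 without rhMG53 replicate 2, and -0.017, -0.021 and -0.030 without rhMG53 replicate 1, rhMG53 replicate 3 and BSA replicate 2.

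Among the type IV genes, Col4a1 and Col4a2 were the abundant pair and did not pass. They encode the chains of the common basement membrane network. Col4a1 (chromosome 8, 11198423 to 11312889) had 636, 519 and 605 CPM with rhMG53 and 618, 511 and 541 CPM with BSA. Col4a2 (chromosome 8, 11312805 to 11449287) had 435, 351 and 396 CPM with rhMG53 and 420.5, 363 and 372 CPM with BSA. Replicate 2 was again the lowest and replicate 1 the highest library of each group, and the groups overlapped. The log2 fold change of Col4a1 was 0.076 (SE 0.091, 95% interval -0.12 to 0.28, adjusted p = 0.986) and that of Col4a2 0.033 (SE 0.086, 95% interval -0.16 to 0.22, adjusted p = 0.994). The sign for Col4a2 turned without rhMG53 replicate 1 and without BSA replicate 2.

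Col4a1 and Col4a2 lie head to head on opposite strands, and their annotated gene bodies share 85 bases, with 22 bases of exon in common in GENCODE. The promoter windows of both genes are shown because they overlap, and that of Col1a2 as that of an abundant fibrillar chain. Each window runs from 250 bases before an annotated start over the first 50 bases from it, on the gene's own strand, and comes from RefSeq (GRCm38.p6, the assembly of mm10). Capitals mark the motifs CCAAT (read as ATTGG when it lies on the other strand), GGGCGG (read as CCGCCC) and TATAAA (read as TTTATA), and no match overlapped another.
Col4a1: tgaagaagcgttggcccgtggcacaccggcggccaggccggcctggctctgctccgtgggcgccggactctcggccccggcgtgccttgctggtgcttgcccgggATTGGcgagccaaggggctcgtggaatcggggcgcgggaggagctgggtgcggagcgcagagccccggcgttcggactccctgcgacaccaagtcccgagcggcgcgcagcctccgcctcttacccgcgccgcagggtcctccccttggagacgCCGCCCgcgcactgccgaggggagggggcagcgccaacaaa
Col4a2: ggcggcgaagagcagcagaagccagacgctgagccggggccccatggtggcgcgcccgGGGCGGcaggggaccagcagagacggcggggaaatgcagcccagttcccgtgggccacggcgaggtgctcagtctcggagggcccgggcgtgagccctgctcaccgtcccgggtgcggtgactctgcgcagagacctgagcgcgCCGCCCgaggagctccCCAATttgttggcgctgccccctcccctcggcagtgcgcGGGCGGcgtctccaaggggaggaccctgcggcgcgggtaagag
Col1a2: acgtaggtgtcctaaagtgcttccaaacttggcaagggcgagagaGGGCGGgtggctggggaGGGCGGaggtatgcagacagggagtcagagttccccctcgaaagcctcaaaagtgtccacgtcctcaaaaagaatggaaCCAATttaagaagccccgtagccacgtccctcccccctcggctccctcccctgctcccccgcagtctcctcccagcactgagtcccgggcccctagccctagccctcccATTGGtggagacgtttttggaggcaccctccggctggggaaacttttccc
The windows are chr8:11312777-11313076 on the minus strand for Col4a1, chr8:11312555-11312854 on the plus strand for Col4a2 and chr6:4505368-4505667 on the plus strand for Col1a2. The Col4a1 window is set on a start inside the gene body. It is not set on the gene end at 11312889, from which the 85 shared bases are counted. The 2 type IV windows share 78 bases, from 11312777 to 11312854, so the last capitals of Col4a1 and of Col4a2 are the same bases on opposite strands. Col4a1 held 1 match to CCAAT and 1 to GGGCGG, Col4a2 held 1 and 3, and Col1a2 held 2 and 2, while none of the 3 windows held TATAAA. Over all 32851 windows of this length 37.4% held CCAAT, 35.7% GGGCGG and 13.6% TATAAA. Of the 35 collagen genes with a window in the table, 13 held CCAAT, 22 GGGCGG and 5 TATAAA in at least 1 window. Counted by window, as the shares over all windows are, 13, 23 and 5 of their 38 windows held these motifs.

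The remaining type IV chains were lower. Col4a5, an X-linked chain mutated in Alport syndrome, averaged 32.9 ± 3.25 CPM with rhMG53 and 33.4 ± 2.21 CPM with BSA, with a log2 fold change of -0.025 (interval -0.21 to 0.16). Col4a3 and Col4a4, the other Alport genes, had 90 and 83 counts in all. Col4a3 averaged 0.849 ± 0.267 CPM with rhMG53 and 0.742 ± 0.0951 CPM with BSA and Col4a4 0.702 ± 0.232 CPM with rhMG53 and 0.756 ± 0.0616 CPM with BSA. Their intervals were wide, -0.50 to 0.90 for Col4a3 and -0.81 to 0.62 for Col4a4. The log2 fold changes of the members of at least 100 CPM, -0.16 to 0.16, lie inside both intervals, and none of those members passed. Col4a6 had 19 counts over 6 libraries and was not tested. Over the 5 tested type IV genes the median log2 fold change was 0.033, with 3 positive and 2 negative values. That median was 0.15 without rhMG53 replicate 2 and -0.044 without rhMG53 replicate 1.

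Type VI chains, which assemble into beaded microfilaments, were lower per kb than the abundant chains of types I, III, IV and V. Col6a1 had 54.3, 43.5 and 49.7 CPM with rhMG53 and 53.0, 45.1 and 52.8 CPM with BSA. Col6a2 had 20.0, 15.4 and 17.6 CPM with rhMG53 and 17.1, 16.9 and 20.9 CPM with BSA. Col6a3, the long chain of the trimer, had 82.6, 62.1 and 92.0 CPM with rhMG53 and 96.8, 75.4 and 75.1 CPM with BSA. The groups overlapped for all 3, and the 3 signs turned when single libraries were left out, rhMG53 replicate 2 among them. For Col6a1 the log2 fold change came to -0.034 (95% interval -0.24 to 0.17), Col6a2 one of -0.048 (95% interval -0.31 to 0.21) and Col6a3 one of -0.065 (SE 0.136, 95% interval -0.37 to 0.24), with adjusted p of 0.995, 0.994 and 0.992 in edgeR. Col6a6 averaged 2.82 ± 0.657 CPM with rhMG53 and 2.57 ± 0.319 CPM with BSA, and Col6a4 and Col6a5 were not tested.

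Of the FACIT genes, whose products sit on fibril surfaces, Col12a1, Col16a1 and Col19a1 were the most abundant. Col12a1 averaged 63.2 ± 15.3 CPM with rhMG53 and 60.0 ± 6.75 CPM with BSA, Col16a1 36.9 ± 3.10 CPM with rhMG53 and 33.6 ± 5.17 CPM with BSA and Col19a1 30.7 ± 2.28 CPM with rhMG53 and 35.1 ± 6.70 CPM with BSA. Their log2 fold changes were 0.076, 0.13 and -0.20, and none passed. Col20a1 and Col9a3 had log2 fold changes of -0.11 and -0.16. Col22a1, which marks the junction of muscle and tendon, had 39 counts over 6 libraries and Col14a1 had 11, too few to test, as were those of Col9a1 and Col9a2.

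Of the transmembrane collagen genes, Col25a1 and Col23a1 were the most abundant and did not pass. Col25a1, known in muscle for its part in innervation by motor axons, had 119, 93.7 and 117 CPM with rhMG53 and 124, 132 and 113 CPM with BSA. The groups overlapped through BSA replicate 3, which lay below 2 of the rhMG53 libraries, and its log2 fold change was -0.16 (SE 0.094, 95% interval -0.37 to 0.044, adjusted p = 0.965). Col23a1 had 61.0, 59.2 and 65.3 CPM with rhMG53 and 56.0, 65.4 and 57.5 CPM with BSA, with a log2 fold change of 0.053 (SE 0.075, 95% interval -0.11 to 0.22, adjusted p = 0.988). Col13a1, a component of the neuromuscular junction, averaged 18.6 ± 1.56 CPM with rhMG53 and 18.6 ± 2.06 CPM with BSA, with an interval of -0.22 to 0.23. Col17a1, of skin hemidesmosomes, was too low to test.

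Col7a1, the anchoring fibril gene best known from skin (chromosome 9, 108953586 to 108984875), had the lowest unadjusted p of the members. It had 29.9, 29.9 and 25.2 CPM with rhMG53 and 38.6, 28.2 and 43.7 CPM with BSA. BSA replicate 2 lay within the range of the rhMG53 libraries and the other BSA libraries above it. The log2 fold change was -0.38 (SE 0.137, 95% interval -0.68 to -0.076, unadjusted p = 0.0189, adjusted p = 0.940 in edgeR). Over the 15 alternative settings it lay between -0.54 and -0.24 with an adjusted p of 0.487 or more, and it was under 0.05 without adjustment with 3 of the 6 libraries left out in turn.

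The multiplexin and short-chain genes did not pass. Col18a1, whose product releases endostatin, had 94.9, 103 and 96.4 CPM with rhMG53 and 105, 89.4 and 114 CPM with BSA, with a log2 fold change of -0.065 (SE 0.085, 95% interval -0.25 to 0.12, adjusted p = 0.986). Col15a1, the other multiplexin gene, known for a muscle phenotype in knockout mice, had only 117 counts in all. Its levels were 1.16, 1.09 and 1.45 CPM with rhMG53 and 1.06, 0.452 and 0.935 CPM with BSA. All 3 rhMG53 libraries were higher, and BSA replicate 2, with 8 counts, held the lowest value. Col15a1 thus had a log2 fold change of 0.56 (SE 0.317, 95% interval -0.14 to 1.26, adjusted p = 0.965), which was 0.29 without BSA replicate 2 and 0.82 without BSA replicate 1. Col8a1, a network-forming short chain, had 116, 112 and 122 CPM with rhMG53 and 125, 97.9 and 111 CPM with BSA, with a log2 fold change of 0.068 (SE 0.084, 95% interval -0.12 to 0.25, adjusted p = 0.986). Col8a2 and Col10a1 lay below 2 CPM in every library. Col26a1 averaged 20.9 ± 1.96 CPM with rhMG53 and 20.0 ± 1.93 CPM with BSA, and Col28a1 was not tested. Over the 19 tested members outside the fibrillar and type IV classes the median log2 fold change was -0.048, with 8 positive and 11 negative values. It was 0.058 without rhMG53 replicate 2 and -0.10 without rhMG53 replicate 1 or without BSA replicate 2.

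For the 11 members of at least 100 CPM the fits were narrow. Their log2 fold changes ran from -0.16 to 0.16, 8 positive and 3 negative, and their 95% intervals together spanned folds of 0.773 to 1.27. The 10 members not tested had 5 to 57 counts each over all 6 libraries.

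Ratios between chains were close in the 2 groups for most pairs. Per kb of exon, the ratio of Col1a1 to Col1a2 was 1.198 ± 0.0188 with rhMG53 and 1.21 ± 0.0867 with BSA (SD, n = 3 each), and that of Col4a1 to Col4a2 was 1.45 ± 0.0324 with rhMG53 and 1.41 ± 0.0307 with BSA. Type I and type IV trimers of the common kind hold more of the first chain of each pair than of the second. The ratio of Col6a1 to Col6a2 was 4.09 ± 0.103 with rhMG53 and 4.05 ± 0.447 with BSA, although their chains enter the trimer in equal number. That last ratio averaged 4.07 over the 6 libraries and 3.15 when the longest transcript was taken as the length, an alternative chosen after seeing the data. Of 8 ratios compared, 1 had groups that did not overlap: Col5a1 to Col5a2 was 1.15, 1.12 and 1.16 with rhMG53 and 1.17, 1.21 and 1.24 with BSA. The exact 2-sided permutation test gave 0.1 for it, the lowest p possible with 3 libraries a group, and 0.4 after adjustment over the 8 ratios.

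**Figure D4:**
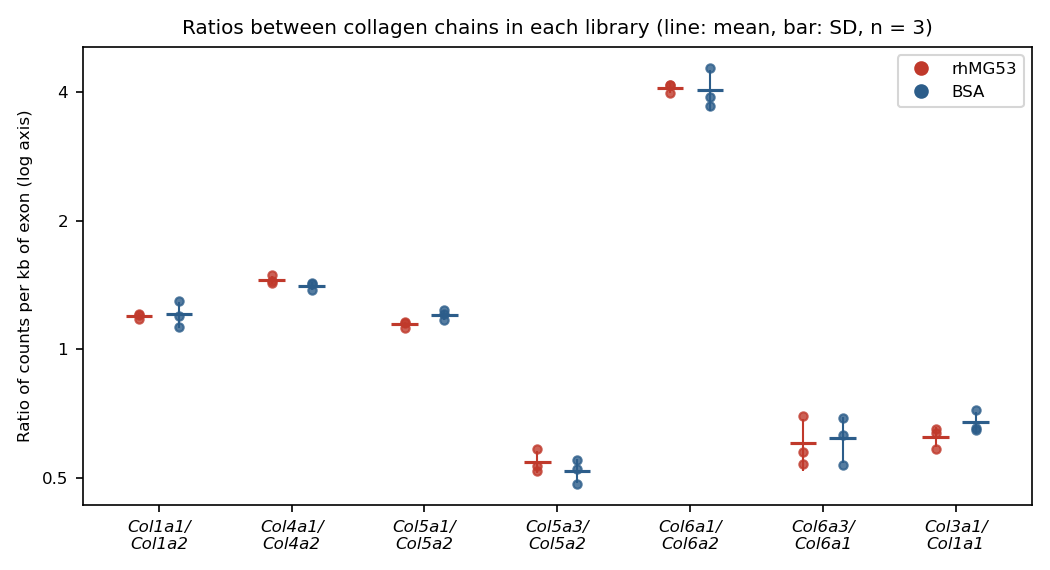
Ratio of counts per kb of exon between 2 collagen genes in each library (points), with the mean (horizontal line) and SD (vertical line) of 3 libraries, on a log axis. The Col6a1 to Col6a2 ratio lies near 4.07 in both groups, and among the 7 ratios drawn only Col5a1 to Col5a2 has points that do not overlap between groups.

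Variation between libraries of a group was shared by many collagen genes. Of the 34 tested members 26 were lowest in rhMG53 replicate 2 among the rhMG53 libraries, and 22 were lowest in BSA replicate 2 among the BSA libraries, with 14 lowest in both. Over all tested genes these libraries were the lowest of their group for 37.0% and 29.6%. The share lowest in both was not taken over all genes, so the 14 does not show a gene-by-gene match between groups. Over the 34 members the deviations from the gene's group mean in the 2 replicate 2 libraries correlated at -0.51. For the 26 members of at least 5 CPM the median deviation from the gene's group mean was -0.13 on the log2 scale in rhMG53 replicate 2 and -0.11 in BSA replicate 2. It was 0.081 and 0.059 in rhMG53 replicates 1 and 3 and 0.093 and 0.016 in BSA replicates 1 and 3. Both replicate 2 libraries also had the lowest sums of the 15 fibroblast markers in their groups, 639 CPM in rhMG53 replicate 2 and 656 CPM in BSA replicate 2. Dcn, on that list, was highest of its group in rhMG53 replicate 2 (20.1 CPM, TMM-scaled) and lowest in BSA replicate 2 (15.3 CPM). The tenocyte sum was highest of its group in rhMG53 replicate 2 (156 CPM) and the middle value in BSA replicate 2 (126 CPM). The part of cell types in this spread was not tested. The myogenic sum was lowest of all in rhMG53 replicate 2 (42898 CPM) and highest of its group in BSA replicate 2 (49294 CPM).

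**Figure D5:**
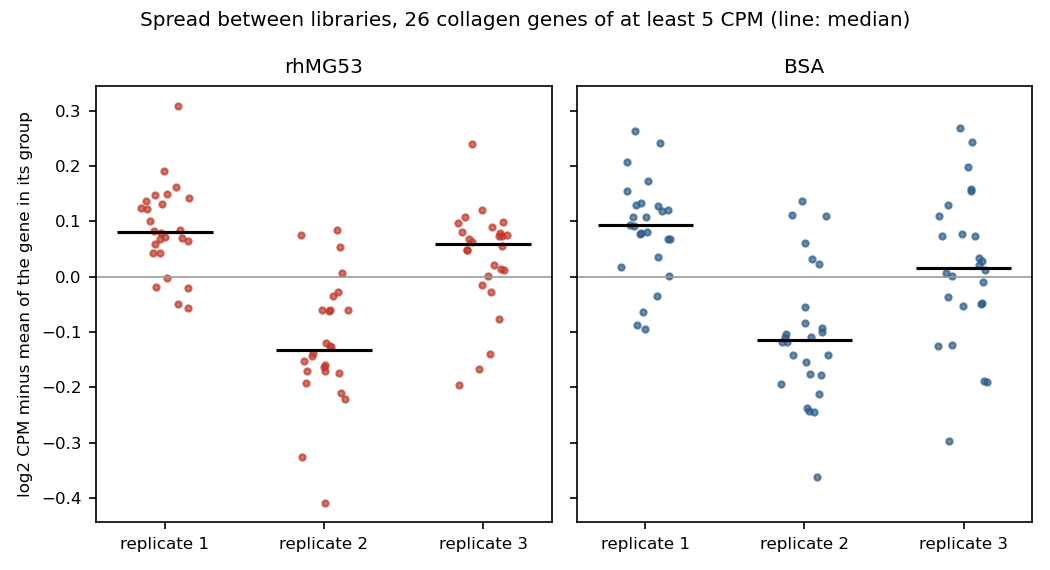
For 26 collagen genes of at least 5 CPM, each point is log2 CPM in a library minus the gene's mean over its group, and the line is the median. Medians are -0.13 in rhMG53 replicate 2 and -0.11 in BSA replicate 2, and lie above 0 in the other 4 libraries.

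The genes that modify, export, trim, cross-link, organise and bind collagen did not pass either. Of 70 genes on 6 lists 59 were tested and 0 were called by edgeR, DESeq2 or limma voom. At an unadjusted p under 0.05 edgeR gave 5 (4 higher, 1 lower), beside 5.2% of all tested genes (2.98% higher and 2.22% lower), DESeq2 3 and limma voom 4. The edgeR number was 0 without rhMG53 replicate 1, 9 without rhMG53 replicate 2, 1 without BSA replicate 2 and 3 without replicate 3 of either group. The median log2 fold change was 0.031, with 37 positive and 22 negative values. Over all tested genes the median was 0.0014 and 50.5% of values were positive. Groups were apart for 8 of the 59, 7 higher and 1 lower, beside 10.8% of all tested genes (5.94% higher and 4.83% lower).

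The chain-modifying enzymes gave 9 positive and 5 negative values among 14 tested genes, with a median of 0.018. P4hb, a subunit of prolyl hydroxylase, averaged 278 ± 9.78 CPM with rhMG53 and 277 ± 4.86 CPM with BSA, a log2 fold change of 0.0053. P4ha1, a catalytic subunit, averaged 173 ± 3.27 CPM with rhMG53 and 164 ± 8.62 CPM with BSA, a log2 fold change of 0.079. Both were expressed at well over 100 CPM in every library. Colgalt1, which adds galactose to hydroxylysine, averaged 109.7 ± 2.76 CPM with rhMG53 and 104 ± 2.07 CPM with BSA, a log2 fold change of 0.079 (SE 0.056, 95% interval -0.044 to 0.20, adjusted p = 0.973). Plod1, a lysyl hydroxylase gene, averaged 50.7 ± 0.921 CPM with rhMG53 and 54.3 ± 4.94 CPM with BSA, a log2 fold change of -0.10. Groups were apart for Colgalt1 alone of the 14. In the folding and export list 4 of 8 tested genes had positive values, with a median of -0.012. Sparc, a collagen-binding matrix protein, averaged 1022 ± 42.2 CPM with rhMG53 and 999.5 ± 41.2 CPM with BSA, a log2 fold change of 0.032. Serpinh1, the collagen chaperone HSP47, averaged 401 ± 14.1 CPM with rhMG53 and 388 ± 22.9 CPM with BSA, a log2 fold change of 0.050. Fkbp14, a prolyl isomerase gene, had a log2 fold change of 0.059, and Creb3l1, a membrane-bound transcription factor gene, one of -0.077.

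Among propeptide-removing genes 5 of 7 tested had positive values, with a median of 0.054. Bmp1, the procollagen C-proteinase, averaged 129 ± 5.07 CPM with rhMG53 and 124 ± 14.6 CPM with BSA, and its enhancer Pcolce 93.0 ± 3.13 CPM with rhMG53 and 91.8 ± 6.17 CPM with BSA. Both signs turned when single libraries were left out. Pcolce2, a related enhancer gene with 95 counts in all, had 0.959, 1.14 and 0.927 CPM with rhMG53 and 0.663, 0.678 and 0.660 CPM with BSA, with all 3 rhMG53 libraries higher. Its log2 fold change was 0.60 (SE 0.267, 95% interval before adjustment 0.0061 to 1.18, adjusted p = 0.950). With single libraries left out in turn, its unadjusted p in edgeR was under 0.05 in 0 of 6 fits. Mep1a, a meprin protease gene, averaged 1.15 ± 0.0964 CPM with rhMG53 and 0.869 ± 0.242 CPM with BSA, a log2 fold change of 0.38.

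Lox, the lysyl oxidase that starts collagen cross-linking, had the lowest p of its list. It had 368, 295 and 312 CPM with rhMG53 and 276, 268 and 292 CPM with BSA. All 3 rhMG53 libraries were higher, with replicate 1 the farthest from the rest. The log2 fold change was 0.22 (SE 0.082, unadjusted p = 0.0199, adjusted p = 0.940 in edgeR), and over the 15 alternatives it lay between 0.12 and 0.29. With single libraries left out in turn, the unadjusted p of Lox in edgeR was under 0.05 in 4 of 6 fits. Loxl2, another family member, averaged 127 ± 16.3 CPM with rhMG53 and 114 ± 11.02 CPM with BSA, a log2 fold change of 0.16. Loxl1, tied to elastic fibres, averaged 208 ± 5.50 CPM with rhMG53 and 204 ± 13.8 CPM with BSA, a log2 fold change of 0.030. Of 7 tested cross-linking genes 3 had positive values, with a median of -0.013.

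Of the proteoglycans and fibril organisers 9 of 11 tested genes had positive values, with a median of 0.061. Fn1, fibronectin, was the most abundant, with 3091, 1949 and 2859.8 CPM with rhMG53 and 2972, 2509 and 2125 CPM with BSA. The spread within each group exceeded the difference between them, and the log2 fold change was 0.055 (SE 0.160, 95% interval -0.30 to 0.41, adjusted p = 0.995). Thbs1, a thrombospondin gene, averaged 546 ± 72.8 CPM with rhMG53 and 524 ± 53.6 CPM with BSA, a log2 fold change of 0.059. Dcn, decorin, which binds collagen fibrils and is also on the fibroblast list, averaged 19.0 ± 0.947 CPM with rhMG53 and 16.6 ± 1.45 CPM with BSA, a log2 fold change of 0.19 (SE 0.090, 95% interval -0.0031 to 0.39, adjusted p = 0.950). Prelp, a proteoglycan gene of the basement membrane zone, had 2.17, 1.31 and 1.62 CPM with rhMG53 and 1.15, 0.621 and 1.26 CPM with BSA, with all 3 rhMG53 libraries higher. Its log2 fold change was 0.74 (SE 0.303, 95% interval before adjustment 0.071 to 1.41, adjusted p = 0.946). With single libraries left out in turn, its unadjusted p in edgeR was under 0.05 in 3 of 6 fits.

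Receptors for collagen gave 7 positive and 5 negative values among 12 tested genes, with a median of 0.0096. Itgb1, the common beta chain of the collagen-binding integrins, averaged 1276 ± 68.5 CPM with rhMG53 and 1261 ± 16.1 CPM with BSA, and the receptor tyrosine kinase gene Ddr1 122 ± 6.95 CPM with rhMG53 and 124 ± 4.52 CPM with BSA. Itga10, an integrin chain best known from cartilage, had 4.64, 4.63 and 5.27 CPM with rhMG53 and 6.45, 5.48 and 7.48 CPM with BSA. All 3 rhMG53 libraries were lower, with a log2 fold change of -0.42 (SE 0.148, 95% interval -0.74 to -0.092, adjusted p = 0.940). Cd44, a hyaluronan receptor that also binds collagen, had 121, 115 and 121 CPM with rhMG53 and 114, 101 and 96.8 CPM with BSA. All 3 rhMG53 libraries were higher, with a log2 fold change of 0.19 (SE 0.070, 95% interval 0.040 to 0.35, adjusted p = 0.940). The intervals of Itga10 and Cd44 are before adjustment. With single libraries left out in turn, the unadjusted p in edgeR was under 0.05 in 4 of 6 fits for Itga10 and 2 of 6 for Cd44. Calcr, the receptor through which type V collagen holds mouse satellite cells quiescent, had 6 counts over the 6 libraries and was too low to test.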

How the data were processed

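Whole-number raw counts per gene are what the authors deposited, with a column for each library, with NCBI gene IDs and no normalisation. TRIzol RNA was poly(A)-selected and made into directional libraries, per the labels' protocols. The submitters' processing notes name mm10, STAR, featureCounts and edgeR without versions. Annotation, strand setting and multi-mapping rules were not given in the sources used here. Reads in exons shared across strands therefore cannot be assigned with certainty.

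RefSeq (GRCm38.p6) named 25275 IDs and GENCODE 18 more, and 1886 unnamed IDs stayed in the tests. Exon length is the union of exons in GENCODE vM21 basic. Genes passing filterByExpr (minimum count 10, minimum total 15) were scaled with TMM factors and compared in edgeR 4.0.16 (R 4.3.3) by the quasi-likelihood F test, 2-sided, adjusted by Benjamini-Hochberg across the 13769 genes, at a threshold of 0.05. An SE is the absolute log2 fold change over the square root of F. CPM of collagen and pathway genes uses TMM-scaled sizes, while shares and all marker values use plain totals. Binomial intervals cover counting error only. The fit was tested on simulated data with planted folds larger than those of the collagen genes of at least 100 CPM. That run does not show how well differences as small as theirs would be found. Alternatives were RLE, upper quartile or no scaling factors, other filters, DESeq2 1.42.0, voom (limma 3.58.1), robust moderation, the replicate number as a term and each library left out.

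The members, lists and tests were chosen with earlier results of these data known. Genes described in full are the 4 fibrillar, 2 type IV and 6 other members of highest CPM per kb, the 6 tested members of lowest p, the chains of types I, III, V and VI with Col4a1 and Col4a2, and, from each list, the 2 genes of highest CPM and the 2 of lowest p.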

Additional observations from a re-analysis of the deposited data

How the results depend on the processing

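None of the collagen genes was called under the 15 alternatives (0 called in each), with 1 to 3 members at an unadjusted p under 0.05. The 42 genes described in full were followed singly, and none passed in any alternative. Other genes given with a log2 fold change, such as Col11a1 and Col12a1, were not followed singly. The number of called genes in the whole table, 3, was 6 with no filter beyond a total count of at least 1, 5 with DESeq2, 0 with the replicate number as a block and 0 to 4 with single libraries left out, and the cause was not tested. The block, tried because both groups carry replicate numbers 1 to 3, changed no call of a collagen gene. Over all tested genes the deviations of same-numbered libraries correlated at 0.30, -0.18 and -0.21 for replicates 1, 2 and 3. The highest value, 0.43, was between rhMG53 replicate 2 and BSA replicate 3. Over the collagen genes the same-numbered values were -0.016, -0.51 and -0.54. Deviations from a group mean sum to 0 within a group, so these values cannot decide whether the numbers mark pairs. As the labels link no library to a given mouse or dish, the numbers are not read as pairs. The difference in collagen share, 0.0167 percentage points, moved by less than the spread between libraries with TMM-scaled sizes (0.0126) and with each library left out (-0.0038 to 0.033), and was below 0 without BSA replicate 2. Of the 42 genes 17 turned sign under at least 1 alternative, 9 of them collagen genes. With upper quartile factors P4hb stood at -0.0026. With single libraries left out the log2 fold changes ran from -0.026 to 0.15 for Col1a1, -0.091 to 0.012 for Col3a1, -0.033 to 0.091 for Col5a1, -0.044 to 0.11 for Col4a2, -0.015 to 0.16 for Col8a1, -0.16 to 0.015 for Col18a1, -0.11 to 0.046 for Col6a1, -0.19 to 0.080 for Col6a3, -0.15 to 0.055 for Col6a2, -0.020 to 0.031 for P4hb, -0.017 to 0.15 for Bmp1, -0.023 to 0.071 for Pcolce, -0.011 to 0.084 for Loxl1, -0.077 to 0.23 for Fn1, -0.0044 to 0.17 for Thbs1, -0.025 to 0.055 for Itgb1 and -0.069 to 0.0091 for Ddr1. The 10 members with at most 57 counts were left out of the main test by the filter. With no filter beyond a total count of at least 1 all 44 members were tested and 0 were called. Whether depth or low expression accounts for their counts was not tested.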
